A study of Mus musculus with 24 samples.

Results

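Cholesterol synthesis in the mouse visual cortex was followed through 8 genes, chosen by symbol from the 55414 genes of the count table. They are Hmgcs1, Idi1, Fdft1, Sqle, Lss and Cyp51, which encode enzymes of the pathway, and Srebf2 and Insig1, which encode its regulators. All 8 passed the filter on low counts, which kept 14464 genes. Visual cortex was collected from 24 male C57BL/6J mice of 8 to 10 weeks, reared with dark days and lit nights and used in their dark phase, with littermates allotted at random. The 4 groups of 6 were dark mice (PBS, kept in darkness), light mice (PBS, moved into light), psilocybin-dark mice (5 mg/kg psilocybin, kept in darkness) and psilocybin-light mice (5 mg/kg psilocybin, moved into light). Tissue was taken after 2.5 hours, and each mouse gave 1 library of polyadenylated RNA. The groups follow the headings of the study's supplementary count table, by which mice 1 to 6 are dark, 7 to 12 psilocybin-dark, 13 to 18 light and 19 to 24 psilocybin-light. The GEO sample labels give every library the same drug but the opposite light exposure. Under those labels the light-against-dark changes below keep their size and take the opposite sign, so the direction of every light effect rests on the choice between these sources. The psilocybin results rest on it too, since the labels' dark group is the one called light here, and under the labels no member passed in psilocybin-dark or psilocybin-light against dark. The mouse is the replicate, and p-values measure the spread among these 24 samples.

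The enzymes named here build cholesterol from acetyl units by way of mevalonate, squalene and lanosterol. Their transcription is driven by SREBP2, the product of Srebf2, which INSIG proteins hold in the endoplasmic reticulum when sterols are plentiful. The brain makes its own cholesterol, because lipoproteins do not cross the blood-brain barrier, and uses it for myelin and for neuronal membranes and synapses, with astrocytes supplying much of it to neurons.

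Promoter sequence is shown for the members present in the RefSeq promoter table (GRCm38.p6), because SREBP2 binds sterol regulatory elements together with the factor NF-Y, whose site is the CCAAT box. The table held 6 of the 8 genes, and Sqle and Fdft1 were not among them. Each window covered the bases around the annotated start, and 3 motifs were searched on both strands, the sterol regulatory element TCACNCCAC, the CCAAT box CCAAT and the GC box GGGCGG. No match overlapped another. Capitals mark matches to the sterol regulatory element (TCACCCCAC) and to the CCAAT box (CCAAT, or ATTGG on the other strand). The stretches are printed 5′ to 3′ on the strand of the gene.
Hmgcs1 (chr13:119690101-119690325, plus strand): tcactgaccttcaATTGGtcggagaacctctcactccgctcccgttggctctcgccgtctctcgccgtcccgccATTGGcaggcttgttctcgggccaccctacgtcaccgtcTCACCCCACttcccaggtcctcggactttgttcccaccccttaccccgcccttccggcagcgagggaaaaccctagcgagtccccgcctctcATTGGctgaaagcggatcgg
Idi1 (chr13:8885546-8885605, plus strand): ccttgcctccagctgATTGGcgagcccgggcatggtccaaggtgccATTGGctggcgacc
Lss (chr10:76531528-76531562, plus strand): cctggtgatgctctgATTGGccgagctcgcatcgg
Cyp51 (chr5:4104707-4104741, minus strand): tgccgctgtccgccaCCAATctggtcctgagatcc
Srebf2 (chr15:82147119-82147153, plus strand): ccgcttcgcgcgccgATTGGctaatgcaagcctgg
Insig1 (chr5:28071181-28071215, plus strand): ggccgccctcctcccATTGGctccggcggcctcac
The CCAAT box was present in the windows of all 6 genes and in 37.4% of the 32851 windows of all genes. The GC box was likewise present in all 6, against 35.7% of all windows. Neither box was particular to the members. Of 13 other sterol synthesis enzymes in the promoter table, 92.3% had a CCAAT box and 84.6% a GC box, against 41.1% and 38.2% of all genes. The sterol regulatory element, in this spelling, was present in Hmgcs1 alone, starting 137 bases before the annotated start, and in 1.24% of all windows. Hmgcs1 had the most CCAAT matches of the 6, with 4 in its window. These matches are letters in a sequence and not measurements of binding.

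Total counts per mouse lay between 13552516 and 17906994. Some libraries stood apart in markers of other tissue. Summed over 9 hippocampal markers, dark mice had 2147 to 6774 normalized counts (counts adjusted for depth, at the average effective size of the libraries), psilocybin-dark mice 679 to 1291, light mice 669 to 1094 and psilocybin-light mice 685 to 1251. Dark mice thus lay above every other mouse (two-sided exact permutation test against each group, p = 0.00216, the smallest that 6 mice against 6 allow), and 5, 4 and 6 of the 7 tested markers were lower in light, psilocybin-dark and psilocybin-light mice. Summed over 5 cerebellar markers, dark mice 1 and 6 had 17224 and 37690, psilocybin-dark mouse 12 had 17374 and light mouse 18 had 10378, and the other 20 mice had 97.8 to 1588. Against dark, the 5 markers had log2 fold changes of −2.68 to −2.12 in light and −1.74 to −1.31 in psilocybin-dark mice, none past the test, and −8.06 to −4.56 in psilocybin-light mice, where all 5 passed. Oligodendrocyte markers ranged from 20265 to 135760 in dark mice, highest in mouse 1, from 42743 to 86642 in psilocybin-dark, from 52048 to 85035 in light and from 46288 to 99501 in psilocybin-light mice, and none of the 8 passed the test in a comparison with dark. Astrocyte markers were lower in psilocybin-light mice (47142 to 53156) than in dark mice (56796 to 68925, exact p = 0.00216), where 3 of 7 passed as lower and 1 as higher. Their ranges were 52496 to 69135 in light and 60190 to 74313 in psilocybin-dark mice. In each of these groups, 2 of the 7 passed as lower and 1 as higher than dark. Markers of cortical excitatory neurons ranged from 12838 to 34037 in dark mice and from 29976 to 40697 over the other groups, with 5 of 7 higher in each comparison with dark. All 6 activity-regulated genes measured were higher than dark in each of the 3 groups. Their sums were 2138 to 6533 in dark and 15005 to 30664 in light mice, and under the GEO labels these groups change places. The paper reports Npas4, Fosb, Egr1 and Arc, all in this list, as increased by light. It describes similar changes by PCR in a repeat of the experiment. Striatal markers were higher in light (3372 to 3971, exact p = 0.00216), psilocybin-dark (2796 to 3643, exact p = 0.00433) and psilocybin-light mice (3286 to 4337, exact p = 0.00216) than in dark mice (1858 to 2966), with 2, 1 and 2 of 5 markers higher. Microglial markers were higher in light (5321 to 6189) than in dark mice (3544 to 5699, exact p = 0.0195), with 3 of 6 higher. Choroid plexus markers stood at 2144 in light mouse 14 and 860 in psilocybin-light mouse 19, and at 86.5 to 179 in the other mice. Of all genes tested, 31.9% differed from dark in light, 24.7% in psilocybin-dark and 38.4% in psilocybin-light mice (edgeR, adjusted p under 0.05). Counts of markers near these shares do not set a list apart. The exact p-values are not adjusted for the number of lists and groups. No listed marker was at 0 in every library. In bulk tissue, fewer cells of a type and less RNA per cell cannot be told apart, and the part these marker differences play in the results below was not tested beyond the values given.

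**Figure D1:**
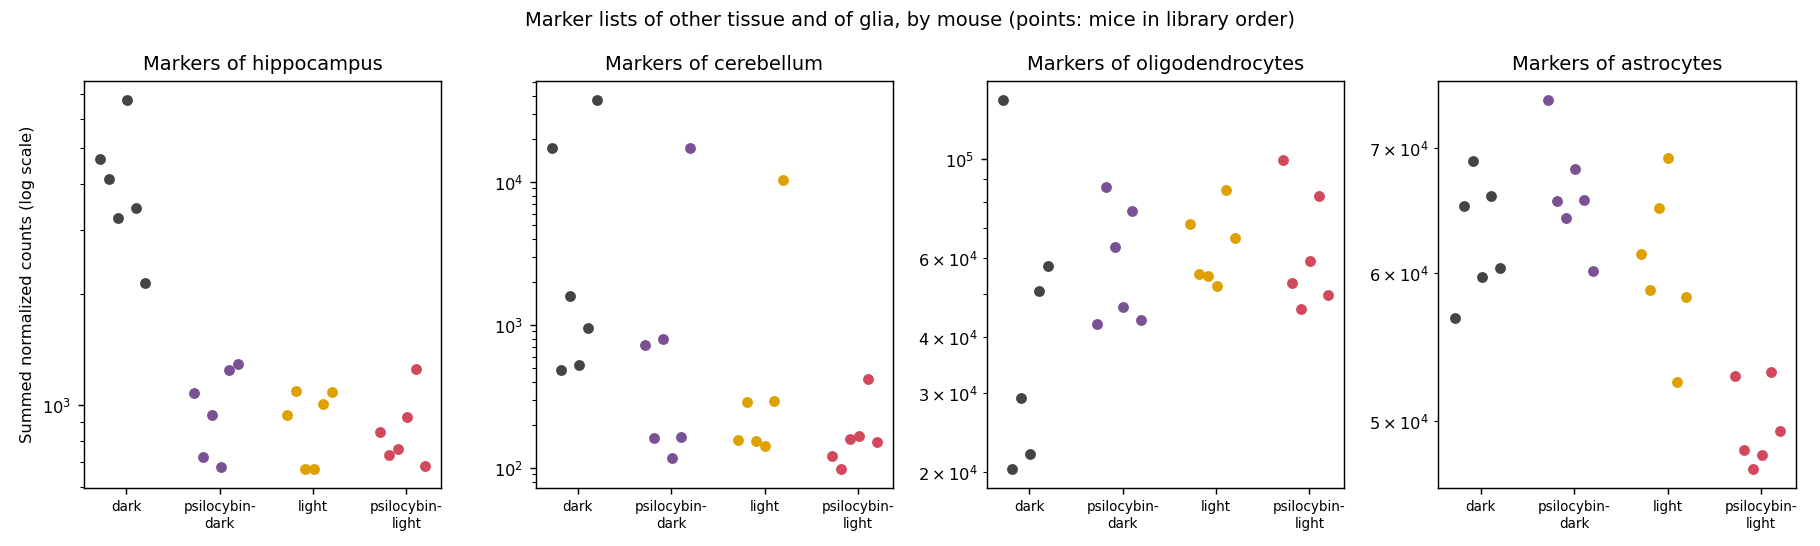
Summed normalized counts of 4 marker lists (vertical axes, log scale) in each of the 24 mice, by group on the horizontal axes. The 6 dark mice lie above all others for hippocampal markers, and cerebellar markers are highest in dark mice 1 and 6, psilocybin-dark mouse 12 and light mouse 18.

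Light, psilocybin and their combination were each set against the dark group. Light was followed by lower levels of 3 of the 8 genes, Sqle, Hmgcs1 and Insig1, and psilocybin in darkness by a lower level of Sqle. Psilocybin with light was followed by lower levels of 3, Sqle, Hmgcs1 and Cyp51. No gene of the 8 passed as higher in this fit. Idi1, Fdft1, Lss and Srebf2 passed the test in no comparison of this fit.

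These counts are read against all genes tested (edgeR quasi-likelihood test, adjusted p under 0.05). In light, 31.9% of all genes differed from dark (15.4% higher and 16.5% lower), against 3 of 8 here. In psilocybin-dark mice 24.7% differed (11.9% higher, 12.8% lower), against 1 of 8, and in psilocybin-light mice 38.4% differed (17.4% higher, 21.0% lower), against 3 of 8. With 8 genes these counts do not set the members apart from all genes in how many were called, and every call was toward lower expression. The median log2 fold change of the 8 genes was −0.18 in light, −0.07 in psilocybin-dark and −0.24 in psilocybin-light mice, and that of all genes −0.01, −0.02 and −0.02. No member separated all 6 dark mice from all 6 mice of another group, whereas 10.0% of all genes did so for light, 5.58% for psilocybin-dark and 15.8% for psilocybin-light. The 3 comparisons share the same 6 dark mice, so their changes are not independent of one another.

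**Figure D2:**
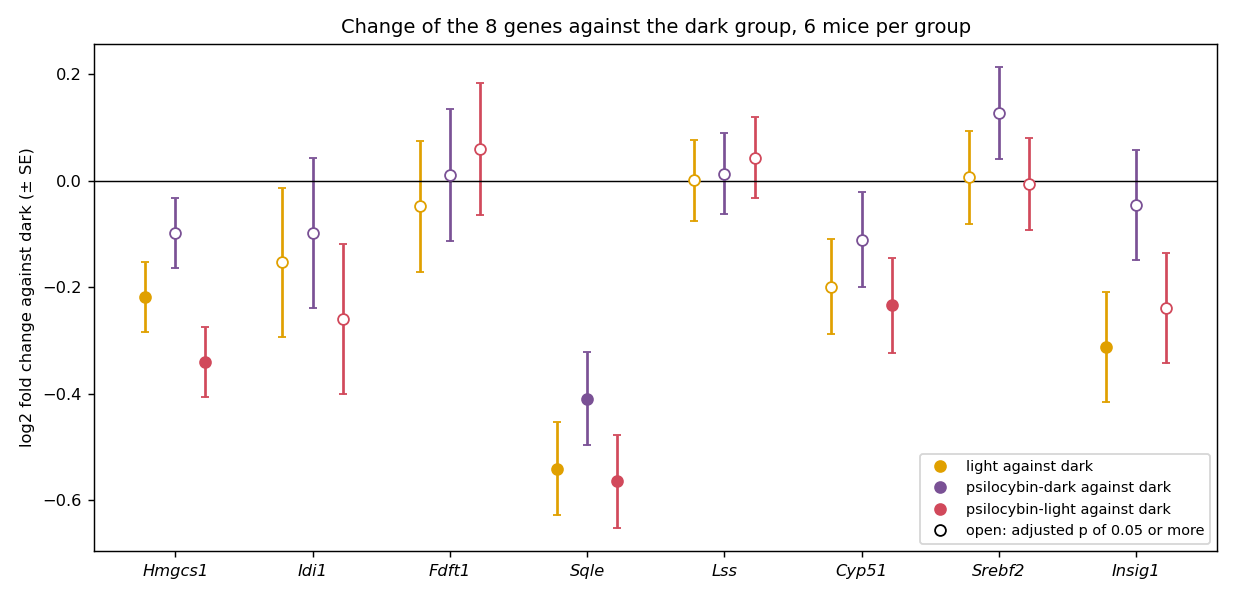
Log2 fold change of each gene against the dark group (vertical axis) in light, psilocybin-dark and psilocybin-light mice, 6 mice per group, with bars of ± 1 standard error. Filled points passed an adjusted p of 0.05. Sqle is filled in all 3 comparisons and reaches −0.56, and the points of Lss and Srebf2 lie near 0 in light and psilocybin-light mice.

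Sqle encodes squalene epoxidase, the first oxygen-requiring step of sterol synthesis and one of its rate-limiting enzymes. It lies on chromosome 15 of GRCm39 from 59186869 to 59203043, on the plus strand. Its normalized counts were 947 at the lowest, 1463 at the median and 1657 at the highest in dark mice. Psilocybin-dark mice had 974, 1052 and 1130, light mice 884, 952 and 1038, and psilocybin-light mice 906, 953 and 977. Dark mice 1 to 5 lay above all 18 mice of the other groups, while dark mouse 6, at 947, lay among them. The share of all genes with such a partial separation was not measured, so these places, here and for the genes below, are descriptions only.

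Against dark, the log2 fold change of Sqle was −0.54 (SE 0.09, adjusted p = 7.80e-05 from edgeR) in light, a fall of 31.3%. It was −0.41 (SE 0.09, adjusted p = 0.00159) in psilocybin-dark mice, 24.7% lower, and −0.56 (SE 0.09, adjusted p = 3.33e-05) in psilocybin-light mice, 32.4% lower. Leaving out any 1 of the 24 mice kept all 3 calls. Without dark mice 1 and 6 the changes were −0.68, −0.55 and −0.71. With the hippocampal marker mean as a covariate, they were −0.36, −0.23 and −0.38 and passed in none of the comparisons (adjusted p = 0.232, 0.750 and 0.218). Calls over all genes fell to 2.52%, 0% and 4.33% in that fit. That covariate did not overlap between dark mice and the others, so the 2 cannot be told apart in this design.

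The effect of light on Sqle was set against the effect of light in mice given psilocybin. Light changed Sqle by −0.54 without the drug and by −0.16 with it (SE 0.09, adjusted p = 0.342), and the interaction, the second less the first, was 0.39 on the log2 scale (SE 0.12, adjusted p = 0.0528). It did not pass the threshold, and no other member came near it, with adjusted p-values of at least 0.530. Of all genes, 8.75% had an interaction. The interaction of Sqle passed with DESeq2's Wald test (adjusted p = 0.0272), and without dark mouse 1, dark mouse 6 or light mouse 17, and reached 0.53 without dark mice 1 and 6 (adjusted p = 7.75e-05).

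Hmgcs1 encodes the cytosolic HMG-CoA synthase, an enzyme of the mevalonate steps at the head of the pathway. The gene lies on chromosome 13 from 120151915 to 120170470, on the plus strand. Dark mice had 2853, 3916 and 4002 normalized counts as lowest, median and highest, and psilocybin-dark mice 3040, 3465 and 3880. Light mice had 3012, 3182 and 3354, and psilocybin-light mice 2851, 2907 and 3008. Dark mice 2 to 5 lay above all 18 other mice, dark mouse 1 among the psilocybin-dark mice, and dark mouse 6 with the lowest mice of all.

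In light Hmgcs1 was lower by 14.1% (log2 fold change −0.22, SE 0.07, adjusted p = 0.0130), and in psilocybin-light mice by 21.0% (−0.34, SE 0.07, adjusted p = 0.000294). In psilocybin-dark mice its change was −0.10 (SE 0.07, adjusted p = 0.289). Without dark mouse 6 alone, that comparison also passed (−0.16, adjusted p = 0.0136). With only the 12 mice compared in the fit, the light change had an adjusted p of 0.0556.

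Hmgcs1 was also the member that differed among the groups outside the dark group. All 6 psilocybin-light mice lay below all 6 psilocybin-dark mice, by −0.24 on the log2 scale (SE 0.07, adjusted p = 0.0269). In that comparison 6.38% of all genes passed the test and 6.42% did not overlap, against 1 of 8 for both. Leaving out 1 mouse at a time lost the call in 7 of 24 cases (psilocybin-dark mouse 7, 8 or 11, psilocybin-light mouse 19, 20, 23 or 24), with an adjusted p of up to 0.0744. All 6 psilocybin-light mice also lay below all 6 light mice, 3008 at the highest against 3012 at the lowest. The difference of −0.12 (SE 0.07, adjusted p = 0.585) did not pass, and 1.62% of all genes had no overlap there.

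Cyp51 encodes the demethylase that acts on lanosterol, after cyclization (chromosome 5, 4123416 to 4154751, minus strand). Its dark values were 949, 1374 and 1459 as lowest, median and highest. Psilocybin-dark mice had 1006, 1157 and 1437, light mice 1059, 1135 and 1252, and psilocybin-light mice 1031, 1111 and 1175. Dark mouse 6 was the lowest of all 24 mice, and dark mice 1 and 4 were the highest. The change was −0.23 in psilocybin-light mice (SE 0.09, adjusted p = 0.0416), −0.20 in light (SE 0.09, adjusted p = 0.0922) and −0.11 in psilocybin-dark mice (SE 0.09, adjusted p = 0.397). The psilocybin-light call was lost in 12 of the 24 fits without 1 mouse (dark mouse 1, 2, 3 or 4, light mouse 15, 17 or 18, or psilocybin-light mouse 19, 20, 21, 22 or 24, adjusted p up to 0.107), and the light change passed without dark mouse 6 and without dark mice 1 and 6 (the latter −0.26, adjusted p = 0.0104). The psilocybin-light call was also lost with no filter on low counts, with only the compared mice in the fit, and with the oligodendrocyte marker mean as a covariate. Akap9 on the opposite strand covers 21.1% of the exon bases of Cyp51. The counts of Cyp51 may thus be off, in either direction, if strand was not used in the counting. The same holds for Fdft1 and Ctsb (24.8%) and, with at most 10.6% of exon bases for any single opposite-strand gene, for Hmgcs1, Idi1, Srebf2, Sqle and Lss.

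**Figure D3:**
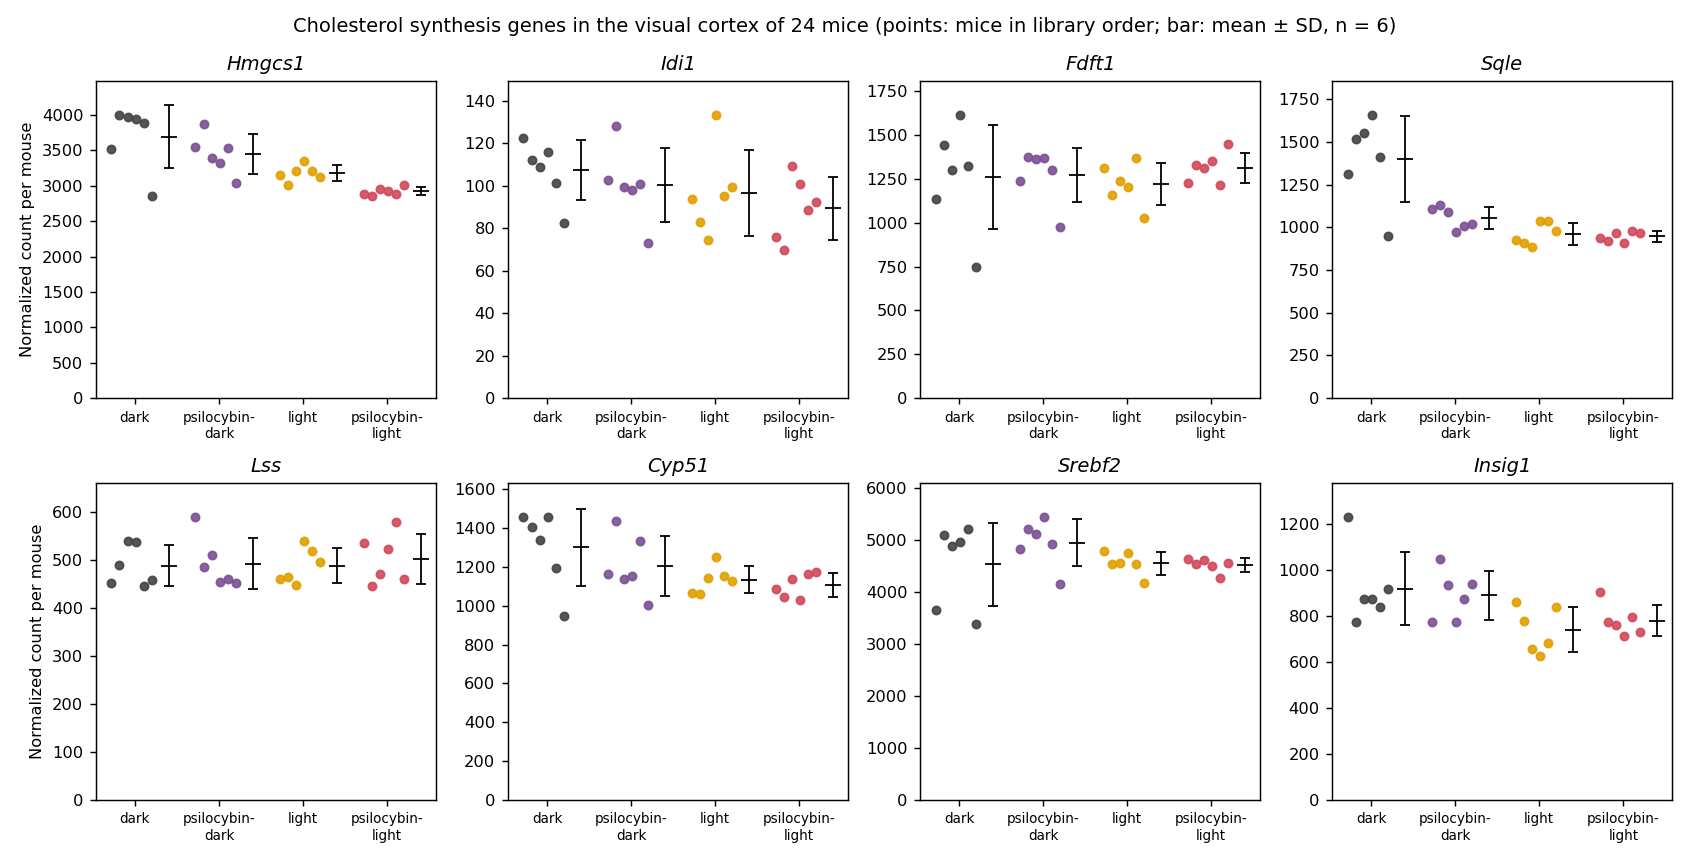
Normalized counts (vertical axes, from 0) of the 8 genes in each of the 24 mice, by group on the horizontal axes, with the mean and SD of each group of 6 beside the points. Dark mice 1 to 5 lie above all other mice for Sqle, and dark mouse 6 is the lowest of its group for 6 of the 8 genes.

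The other 3 enzymes did not pass in any comparison. Fdft1, squalene synthase (chromosome 14, 63382189 to 63417027, minus strand), ranged from 746 to 1614 in dark mice, from 976 to 1376 in psilocybin-dark, from 1028 to 1372 in light and from 1217 to 1447 in psilocybin-light mice. Dark mouse 6 and dark mouse 4 were thus the lowest and the highest of all 24 mice. Its changes against dark lay between −0.05 and 0.06 (SE 0.12).

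Lss, lanosterol synthase, which forms the ring system of sterols (chromosome 10, 76367298 to 76392976, plus strand), had the most even levels. Its group means were 487 ± 42.6 in dark, 492 ± 53.1 in psilocybin-dark, 487 ± 36.5 in light and 502 ± 51.5 in psilocybin-light mice (SD, n = 6). The log2 changes against dark were 0.00, 0.01 and 0.04 for light, psilocybin-dark and psilocybin-light (SE 0.08 for each).

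Idi1, isopentenyl-diphosphate isomerase (chromosome 13, 8935537 to 8942487, plus strand), was the least counted member. Dark mice had 82.2 to 122.6 normalized counts, psilocybin-dark mice 73.1 to 128.0, light mice 74.5 to 133.3 and psilocybin-light mice 69.8 to 109.1, and all groups overlapped. Its changes against dark were −0.15 in light, −0.10 in psilocybin-dark and −0.26 in psilocybin-light mice, with a standard error of 0.14 (adjusted p = 0.433, 0.660 and 0.151).

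Of the regulators, Insig1 encodes a sterol-dependent anchor that keeps SCAP and SREBP in the endoplasmic reticulum and is itself an SREBP target (chromosome 5, 28276315 to 28283668, plus strand). Its values were 774, 874 and 1231 as lowest, median and highest in dark mice and 772, 903 and 1048 in psilocybin-dark mice. They were 624, 730 and 859 in light and 712, 767 and 904 in psilocybin-light mice. Dark mouse 1, at 1231, lay above all other mice, and the remaining dark mice lay between 774 and 918, within the range of the psilocybin-dark group.

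Insig1 was lower in light by 19.5% (log2 fold change −0.31, SE 0.10, adjusted p = 0.0238). The change was −0.24 in psilocybin-light (SE 0.10, adjusted p = 0.0707) and −0.05 in psilocybin-dark mice (SE 0.10, adjusted p = 0.788). The light call was lost without dark mouse 1 (−0.21), and without light mouse 15, 16 or 17, with an adjusted p of up to 0.0789 in these 4 fits. Without dark mice 1 and 6 it was −0.19 (adjusted p = 0.109), and with the hippocampal marker covariate it turned to 0.08 (adjusted p = 0.837). Between psilocybin-dark and light mice Insig1 differed by 0.27 (SE 0.10, adjusted p = 0.206), the largest difference among the members in a comparison where 0.456% of all genes passed.

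Srebf2, which encodes the transcription factor SREBP2 (chromosome 15, 82031382 to 82093201, plus strand), had 3373, 4921 and 5214 normalized counts as lowest, median and highest in dark mice. Psilocybin-dark mice had 4154, 5014 and 5446, light mice 4162, 4540 and 4785, and psilocybin-light mice 4262, 4537 and 4623. Dark mice 1 (3660) and 6 (3373) lay below all other mice, and dark mice 2 to 5 (4886 to 5214) lay above all light and psilocybin-light mice. Over all mice the changes were 0.01 in light, 0.13 in psilocybin-dark and −0.01 in psilocybin-light mice (SE 0.09, adjusted p = 0.966, 0.306 and 0.964). Without dark mice 1 and 6 the light change became −0.16 (adjusted p = 0.0299) and the psilocybin-light change −0.17 (adjusted p = 0.0173).

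Leaving out dark mice 1 and 6, which had the most cerebellar marker counts in their group, therefore moved several values. The count of members lower than dark rose from 3 to 5 in light, with Fdft1, Cyp51 and Srebf2 gained and Insig1 lost, from 1 to 2 in psilocybin-dark and from 3 to 4 in psilocybin-light mice. Calls over all genes rose as well, from 31.9% to 39.1%, from 24.7% to 33.5% and from 38.4% to 42.9%, so the rise is not particular to the members. With these mice out, the other dark mice lay above all 18 remaining mice in Sqle (1412 to 1657 against 1130 at the highest). The same held for Hmgcs1, by a narrow margin (3885 to 4002 against 3880). The mice left out were the ones that overlapped, mouse 6 for Sqle and mice 1 and 6 for Hmgcs1. The share of all genes separated in this way was not measured, so no result about the members is read from it.

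Between psilocybin-light and light mice no member passed the test, where 0.608% of all genes did. The changes ranged from −0.12 (Hmgcs1) to 0.11 (Fdft1). Psilocybin-dark mice had higher means than light mice for all 8 genes, by 0.01 (Lss) to 0.27 (Insig1), and again no member passed.

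Levels were compared between genes per kilobase of exon, as CPM divided by the length of all exons that GENCODE vM39 annotates for the gene. That length joins the exons of every transcript (11359 bases for Lss, 8885 for Sqle), and the transcripts in use were not measured. The order depends on it, since by mean normalized counts in dark mice Sqle (1399) lay above Cyp51 (1301), Fdft1 (1261) and Insig1 (919). In dark mice Hmgcs1 stood highest at 43.7 ± 5.31 (SD, n = 6), then Srebf2 at 30.2 ± 5.33, Fdft1 at 16.4 ± 3.88, Cyp51 at 13.65 ± 2.08, Insig1 at 11.7 ± 2.05, Sqle at 9.81 ± 1.76, Lss at 2.67 ± 0.234 and Idi1 at 1.88 ± 0.248. The neighbours Fdft1 and Cyp51, Cyp51 and Insig1, and Insig1 and Sqle differed by less than the larger of their SDs, while the other neighbours were farther apart. The spread between mice was widest in the dark group for 6 of the 8 genes, for example a coefficient of variation of 18.0% for Sqle against 3.18% in psilocybin-light mice, and 12.2% for Hmgcs1 against 1.94%.

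Single mice moved in several members at once. Dark mouse 6 was the lowest of its group in 6 of the 8 genes, and psilocybin-dark mouse 12 also in 6, while psilocybin-dark mouse 8 was the highest of its group in 6. Across the 24 mice, with the group means removed, the 28 pairs of members had Pearson coefficients from −0.441 (Insig1 and Srebf2) to 0.857, with a median of 0.453, and 22 were positive. These are descriptions with no test, since members share libraries and their depth. Among 11112 other genes (mean count 100 or more), the levels most like the mean of the members by the same measure were those of Msmo1, the sterol methyl oxidase of the same pathway (r = 0.905), and of Sorcs2 (0.894), Agpat4 (0.871), Mturn (0.869) and Shisal1 (0.867), over 24 mice. That mean, with each member scaled to its own SD, was −2.263 in dark mouse 6 and −1.169 in psilocybin-dark mouse 12. It lay between −0.482 and 1.021 in the other mice. Both mice were among the 4 with the most cerebellar marker counts, and how far they carry these coefficients was not tested.

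The wider pathway was described with 4 lists of genes. Of all genes, 16.5% were lower and 15.4% higher than dark in light. In psilocybin-dark mice 12.8% were lower and 11.9% higher, and in psilocybin-light mice 21.0% and 17.4%. In 10.0%, 5.58% and 15.8% of all genes, in the same order, the group did not overlap dark mice. Of 16 other sterol synthesis enzymes, 6 were lower and 2 higher in light, 6 lower and 1 higher in psilocybin-dark, and 8 lower and 0 higher in psilocybin-light mice. Their median log2 fold changes were −0.18, −0.11 and −0.22. Dhcr7, which completes cholesterol in the Kandutsch-Russell branch, was lower in all 3 comparisons. Its normalized counts were 473 at the lowest and 569 at the median in dark mice, against medians of 413, 436 and 389 in light, psilocybin-dark and psilocybin-light mice. The changes were −0.39 (SE 0.06, adjusted p = 6.82e-05), −0.34 (adjusted p = 0.000419) and −0.50 (adjusted p = 3.16e-06), and psilocybin-light mice did not overlap dark mice.

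Fdps, which makes farnesyl diphosphate ahead of Fdft1, was lower by −0.40, −0.45 and −0.50 in light, psilocybin-dark and psilocybin-light mice (SE 0.10, adjusted p = 0.00320, 0.00181 and 0.000325). Nsdhl, a sterol demethylation enzyme, changed by −0.44, −0.41 and −0.40 (SE 0.11, adjusted p = 0.00375, 0.00879 and 0.00590). Sc5d, the sterol desaturase before Dhcr7, was lower by −0.41 in psilocybin-light mice (SE 0.06, adjusted p = 1.28e-05) with no overlap, and by −0.24 in light and −0.20 in psilocybin-dark mice (adjusted p = 0.00349 and 0.0130). Msmo1 was lower in light (−0.25, adjusted p = 0.0396) and psilocybin-light mice (−0.36, adjusted p = 0.00378), with −0.23 in psilocybin-dark mice (adjusted p = 0.0689). Its light call was lost in 9 of the 24 fits without 1 mouse (dark mouse 1, 2, 3, 4 or 5, or light mouse 13, 14, 15 or 18, adjusted p up to 0.115).

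Among 12 genes of SREBP control and sterol uptake, 3 were lower and 1 higher in light, 1 lower and 1 higher in psilocybin-dark, and 2 lower and 2 higher in psilocybin-light mice. With 12 genes, these counts do not set the list apart from all genes. Stard4, a sterol carrier of the cytosol, was lower in all 3 (−0.52, −0.37 and −0.52, SE 0.09), without overlap in light and psilocybin-light mice. Npc1l1, a sterol transporter known from the gut, was higher by 2.17, 2.13 and 2.56 in the same order (SE 0.39), from a level of only 4.32 ± 2.63 normalized counts in dark mice. Scap, Srebf1 and Insig2, which encode the SREBP escort, the other SREBP gene and the second INSIG, passed in no comparison with dark in this fit, with changes between −0.14 and 0.05.

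Fatty acid synthesis, which answers mainly to SREBP1, was the list with the largest share of genes lower in light and psilocybin-light mice. Of 12, 7 were lower in light, 3 in psilocybin-dark and 9 in psilocybin-light mice, and 0 were higher in any of them. Acly, which supplies cytosolic acetyl-CoA to both pathways, was lower in all 3 without overlap in light and psilocybin-dark mice (−0.34, −0.25 and −0.24, SE 0.07). Acaca, which makes malonyl-CoA, was lower in light without overlap (−0.33, SE 0.06, adjusted p = 0.000258) and in psilocybin-light mice (−0.25, adjusted p = 0.00192), and Fads2, a fatty acid desaturase, by −0.34, −0.36 and −0.41 in the 3 comparisons (SE 0.09). Me1, a source of NADPH, was lower by −0.25 in psilocybin-dark mice with no overlap (SE 0.06, adjusted p = 0.00476), by −0.25 in light and by −0.29 in psilocybin-light mice (adjusted p = 0.00362 and 0.000842). In psilocybin-light mice Elovl6, an elongase (−0.52, SE 0.09), and Scd1 and Scd2, stearoyl-CoA desaturases (−0.51, SE 0.15, and −0.44, SE 0.09), had the largest changes of the list. In light they had −0.30, −0.38 and −0.30, of which Elovl6 and Scd2 passed (adjusted p = 0.00962 and 0.0140), and in psilocybin-dark mice −0.23, −0.32 and −0.21, none of which passed.

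Of 12 genes of cholesterol export, storage and turnover, 3 were lower and 1 higher in light, 3 lower and 0 higher in psilocybin-dark, and 3 lower and 2 higher in psilocybin-light mice. These counts, too, do not set the list apart from all genes, of which 31.9%, 24.7% and 38.4% differed from dark. Soat1, which esterifies cholesterol, was lower in all 3 and by most in psilocybin-light mice, without overlap (−0.35, −0.30 and −0.75, SE 0.09, the last with an adjusted p of 1.38e-06). Abcg4, a sterol exporter of the brain, was lower by −0.28 in light, −0.32 in psilocybin-dark and −0.30 in psilocybin-light mice (adjusted p = 0.00167, 0.000929 and 0.000721). Lcat, which esterifies cholesterol on lipoproteins, was lower by −0.87 in psilocybin-light mice (SE 0.27, adjusted p = 0.0131), with −0.46 in light and −0.47 in psilocybin-dark mice (adjusted p = 0.199 and 0.209). Apoe, the main lipoprotein protein of astrocytes, was lower in psilocybin-dark mice (−0.27, SE 0.10, adjusted p = 0.0445), with −0.03 in light and −0.13 in psilocybin-light mice. That call was lost in 14 of the 24 fits without 1 mouse (dark mouse 1, 2, 3 or 4, psilocybin-dark mouse 8, 9, 10 or 11, light mouse 14, 15 or 17, or psilocybin-light mouse 19, 21 or 24, adjusted p up to 0.113). Nr1h2, a sterol-activated receptor, was higher in light (0.35, SE 0.07, adjusted p = 0.000708) and psilocybin-light mice (0.28, adjusted p = 0.00325), with 0.17 in psilocybin-dark mice (adjusted p = 0.0817). Scarb1, a lipoprotein receptor, was higher in psilocybin-light mice (0.36, SE 0.10, adjusted p = 0.00714), with 0.25 in light and 0.17 in psilocybin-dark mice (adjusted p = 0.0604 and 0.229). Abca1, which loads sterol onto apolipoproteins, was lower in light (−0.32, SE 0.12, adjusted p = 0.0426), with −0.13 in psilocybin-dark and −0.21 in psilocybin-light mice (adjusted p = 0.457 and 0.181). The light call was lost in 8 of the 24 fits without 1 mouse (dark mouse 1, 3 or 6, light mouse 13, 14, 15 or 17, or psilocybin-light mouse 24, adjusted p up to 0.114). Cyp46a1, the neuronal enzyme that turns cholesterol over, had 0.40, 0.25 and 0.41 (SE 0.17) and did not pass.

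An interaction of light and psilocybin passed in 3 of the 52 companion genes, against 8.75% of all genes, namely Abcg4 (0.30, SE 0.09, adjusted p = 0.0407), Acly (0.35, SE 0.09, adjusted p = 0.0229) and Npc1l1 (−1.73, SE 0.51, adjusted p = 0.0378). The Abcg4 call held in 10 of the 24 fits without 1 mouse and was lost without dark mouse 2 or 4, psilocybin-dark mouse 7, 8, 10 or 11, light mouse 13, 14, 15 or 16, or psilocybin-light mouse 20, 21, 22 or 23. The Npc1l1 call held in 12 and was lost without dark mouse 2, psilocybin-dark mouse 8, 9, 10 or 11, light mouse 13, 14, 15 or 16, or psilocybin-light mouse 21, 23 or 24. The Acly call held in all 24. With the hippocampal marker covariate, 2 of the 51 changes of named companion genes that passed in the comparisons with dark and the interaction were kept, with the limit given for Sqle.

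**Figure D4:**
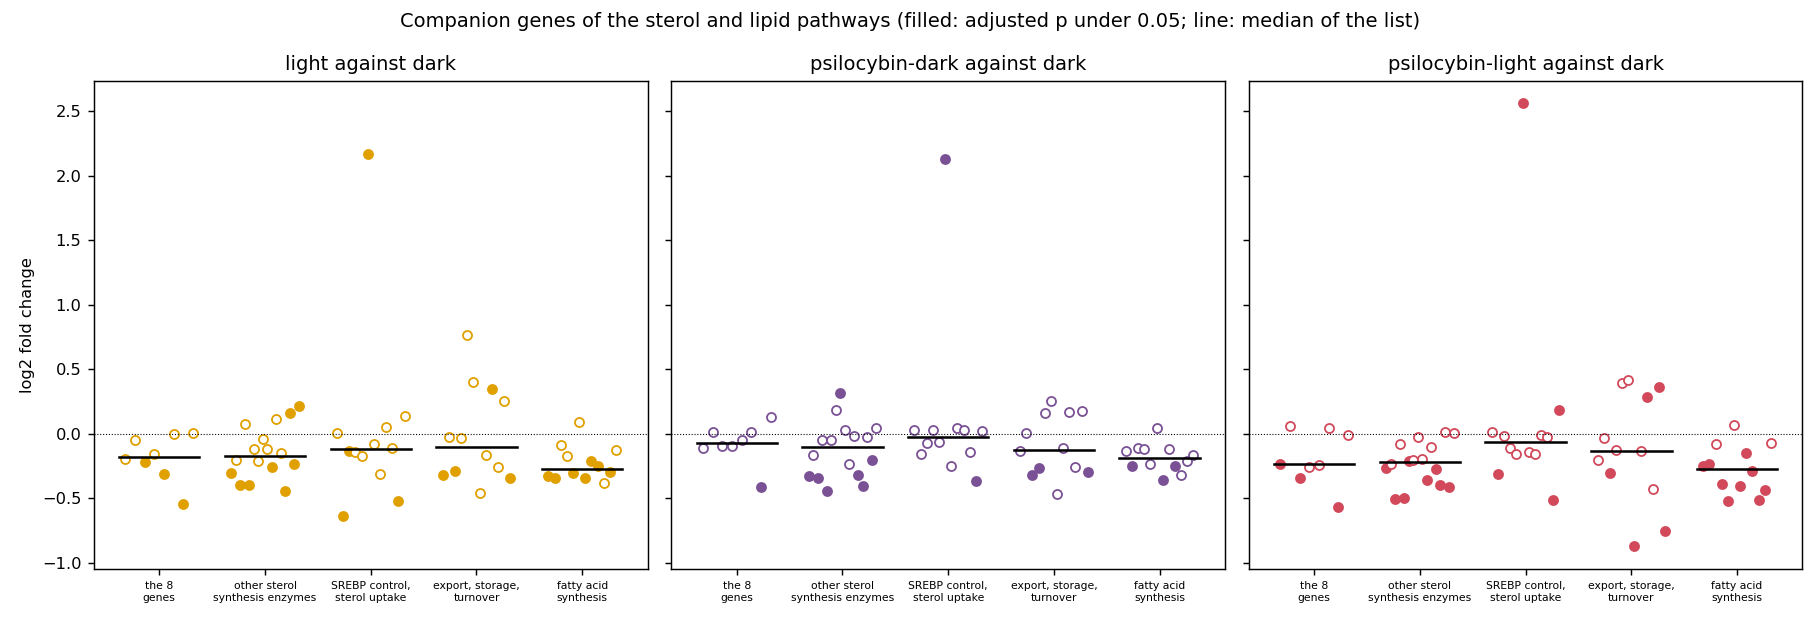
Log2 fold change against dark (vertical axis) of the 8 genes and of 4 companion lists (horizontal axis), 1 panel per comparison, with filled points for an adjusted p under 0.05 and a line at the median of each list. The medians lie below 0 in all 3 panels, and the point above 2 is Npc1l1.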

How the data were processed

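Per the methods, the authors trimmed reads (cutadapt), aligned them (STAR) and assigned them to Ensembl genes (htseq-count). The deposited values are raw counts without normalization. The genome is GRCm39 in the methods and mm10 in the submitters' processing notes, and the annotation release and strand setting are not given in the sources used here. Analysis used R 4.3.3 and edgeR 4.0.16 on genes reaching 30 counts in 1 library or more (14464), with TMM scaling and 1 quasi-likelihood fit of all 24 mice, each group a term. The p-values are two-sided and adjusted by Benjamini-Hochberg over all genes tested. Log2 levels used a prior count of 2. Gene positions and names come from GENCODE vM39.

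Any pair of libraries within a group differed by more than sampling noise. The fit was checked on simulated data. The members and lists were chosen with earlier results of these data known. Named are all members, the called companion genes with the largest change (at most 3 per list and comparison), fixed names of the pathway, and the 5 genes most like the members. Some companion genes that this rule names are not reported here. Alternatives used DESeq2 1.42.0, sva 3.50.0, other filters and scaling, marker covariates, the sample labels' light exposure and each mouse left out. Figures were drawn with matplotlib 3.10.9.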

Additional observations from a re-analysis of the deposited data

Results flagged for a closer look

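Among the 32 sets of 6 values (8 genes in 4 groups), 4 had a lowest or highest mouse flagged by Dixon's ratio, where chance flags about 1 in 20 such sets. The sets share mice, so the 4 flags are not read as an excess. The ratios were 0.626, 0.631, 0.697 and 0.638, in the order given next, and Srebf2 in light mice, at 0.606, was not flagged. Hmgcs1 in dark mouse 6 was 2853 normalized counts, with the next dark mouse at 3526, and Insig1 in dark mouse 1 was 1231, with the next at 918. Fdft1 in psilocybin-dark mouse 12 was 976, with the next at 1240. Srebf2 in psilocybin-light mouse 23 was 4262, with the next at 4489. Dark mice 1 and 6 and psilocybin-dark mouse 12 were also among the 4 mice with the most cerebellar marker counts, and the part of those markers in these values was not tested.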

How the results depend on the processing

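The 3 Sqle changes against dark kept direction and call under every alternative with the same groups except the hippocampal marker covariate. Over members, and leaving out that covariate and the label exposure, 71 of 80 called changes were kept and 9 lost, 31 others passed with the same sign and 2 with the opposite sign (Srebf2, below), while 38 that passed in neither fit differed in sign. For the named companion genes, 476 of 507 were kept and 31 lost. Fits without 1 mouse gave 2 to 4 members called in light, 1 to 2 in psilocybin-dark (2 without dark mouse 6), 2 to 3 in psilocybin-light, 0 to 1 for psilocybin-light against psilocybin-dark (0 without psilocybin-dark mouse 7, 8 or 11 or psilocybin-light mouse 19, 20, 23 or 24) and 0 to 1 for the interaction. The count of companion genes with an interaction, 3 over all mice, ranged from 1 to 12 (12 without dark mouse 6). It was 8 with DESeq2's Wald test, 1 with no filter, 13 with 1 surrogate variable, 6 with the oligodendrocyte and with the cerebellar covariate, 14 without dark mice 1 and 6, 16 without the 4 mice and 0 with the hippocampal covariate. The interaction count was 1 (Sqle) with DESeq2's Wald test, DESeq2's size factors, filterByExpr, the cerebellar marker covariate, without dark mice 1 and 6, and without the 4 mice with the most cerebellar marker counts, and 2 (Sqle, and Srebf2 downward) with 1 surrogate variable. Psilocybin-light against psilocybin-dark gave 0 with no filter, 2 with only the compared groups, with 1 surrogate variable, with the cerebellar covariate and without dark mice 1 and 6, and 3 without the 4 mice. Only the compared groups gave 1 in light and could not be run for the interaction, which needs all 4 groups. Psilocybin-dark against dark gave 2 with 1 surrogate variable, Sqle lower and Srebf2 higher. It also gave 2, Sqle and Hmgcs1, both lower, with the cerebellar covariate, without dark mice 1 and 6 and without the 4 mice. Light against dark gave 5 without dark mice 1 and 6, where Srebf2 turned to −0.16, and 5 without the 4 mice, where it was −0.12. Psilocybin-light against dark gave 2, Sqle and Hmgcs1, with no filter and with only the compared groups. It gave 4 with the cerebellar covariate, without dark mice 1 and 6 and without the 4 mice. Psilocybin-dark against light gave 1 (Insig1) with the oligodendrocyte covariate and 2 without the 4 mice. For most of these fits the share of all genes called is not given here. Their counts are therefore not read as results about the members or the companion genes. The cerebellar covariate and the 4 left-out mice were chosen after the data were seen, and the cause of these changes was not tested.

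With the hippocampal covariate 0 members passed in light, 0 in psilocybin-dark and 0 in psilocybin-light against dark, where calls over all genes fell from 4611, 3575 and 5551 to 365, 0 and 627. Reversed under it were Insig1 (0.083), Scd2 (0.0281), Nsdhl (0.0011) and Srebf1 (0.39) in light, Apoe (0.0527), Acly (0.0018) and Nsdhl (0.0252) in psilocybin-dark, and Acly (0.0288), Scd1 (0.0536), Nsdhl (0.061) and Srebf1 (0.50) in psilocybin-light mice. Srebf1 passed as higher (adjusted p = 0.0448 and 0.00906). Dark mice did not overlap the others in this covariate, so the covariate and the group cannot be told apart.

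With the light exposure of the sample labels, light against dark became 0.22 for Hmgcs1, 0.54 for Sqle and 0.31 for Insig1, all higher, and psilocybin-light against psilocybin-dark became 0.24 for Hmgcs1. Psilocybin-dark and psilocybin-light against dark then had 0 and 0 members called, the latter with 0.12 for Hmgcs1, 0.13 for Sqle and 0.0889 for Cyp51. Psilocybin-light against light had 1 (Sqle), and psilocybin-dark against light 3, with −0.34 for Hmgcs1, −0.56 for Sqle and −0.23 for Cyp51. No paired analysis was possible because no mice of the compared groups shared a replicate number. A common biological coefficient of variation of 0.182 limits calls of small changes, and Idi1, at about 100 counts, is the least precise member.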
